A study of Mus musculus with 11 samples.

Results

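The genes described here make secreted proteins that promote or restrain the growth of blood and lymph vessels, together with Nrp1, a receptor on the cell surface that binds several of them. There were 10 such genes, chosen by name from those with a probe set on the arrays, which held probe sets for 14351 named genes in all. Each of the 10 had 1 probe set. Of these, 9 were bright enough to be tested, among 8085 tested genes, and Thbs2 was too dim. Vegfa, the best known vessel growth factor, was left out of the group.

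RNA came from whole lungs of Balb/c mice that were either wild type (WT) or lacked Eif4ebp1 and Eif4ebp2 (labelled 4ebp1-/-/4ebp2-/-, here called knockout). These genes make 4E-BP1 and 4E-BP2, proteins that hold the cap-binding factor eIF4E away from the translation machinery. Both genotypes received the AIN-93M purified diet from 5 weeks of age, and the sources do not give the age at collection. The wild-type mice were bought from a supplier and the knockout mice came from another laboratory, so genotype and origin cannot be told apart. For each genotype 3 arrays carried total RNA. Polysomal RNA, pooled from fractions 7 to 10 of 10 gradient fractions and so from messages with at least 3 ribosomes, was on 2 wild-type and 3 knockout arrays. Whether each array stands for its own mouse is not stated, so the p-values rest on array-to-array spread that may be technical.

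Vessel growth is set by opposing secreted signals. Growth factors of the VEGF and PDGF families drive endothelial sprouting and draw in the supporting pericytes, and the angiopoietins act through the endothelial receptor Tek to steady or loosen the vessel wall. Thrombospondins and the protease Adamts1 restrain sprouting. The lung is rich in capillary endothelium, which makes many of these proteins itself.

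The labels were checked on the deleted genes first. On the log2 scale of the deposited probe set values, Eif4ebp2 lay at 4.50, 5.49 and 4.67 in wild-type total RNA and at 2.61, 3.10 and 3.26 in knockout total RNA. In polysomal RNA it lay at 5.76 and 6.09 in wild type and at 3.90, 3.92 and 3.75 in knockout. The genotypes did not overlap in either RNA kind. Eif4ebp1 was at 8.20 to 8.54 on the wild-type and 7.92 to 7.94 on the knockout total arrays, a difference of only -0.40 (SE 0.11). In polysomal RNA Eif4ebp1 was at 7.78 to 7.93 in wild type and 7.05 to 7.36 in knockout (-0.67, SE 0.13). The sources do not say if its probes fall in the deleted stretch. Untested dim probe sets, whose median serves as a floor, had medians of 2.30 to 2.49 on the 11 arrays. Of 8 measured markers of alveolar type 2 and club cells, 7 were tested and 1, Nkx2-1, stayed below 5 on every array. Of 16 endothelial markers, 14 were tested.

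In total RNA, knockout lungs held less of the Esm1 and Adamts1 messages and more of the Pdgfb message. In polysomal RNA they held less Angptl4, and Thbs1 was also lower there, although it could be tested only because its wild-type polysomal arrays were high. The Adamts1 and Angptl4 calls were lost without some single arrays and under some other settings, as given below. Of the 9 tested genes 1 rose, 2 fell and 6 did not pass in total RNA. A gene passed where the adjusted p of the limma fit was under 0.05. Over all tested genes 23.2% passed in total RNA, 17.2% higher and 5.97% lower. The higher share among those calls was 74.3%, 60.6% after quantile normalization and 37.0% when dim probe sets were kept in, where 29.4% of all genes passed. In polysomal RNA none rose, 2 fell (both with an unadjusted p under 0.05, as did no other member; 1 of them was Thbs1) and 7 did not pass, beside 15.1% of all tested genes that passed, 8.36% higher and 6.77% lower. Being bulk tissue, the samples cannot tell fewer cells of a type from less RNA per cell.

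**Figure D1:**
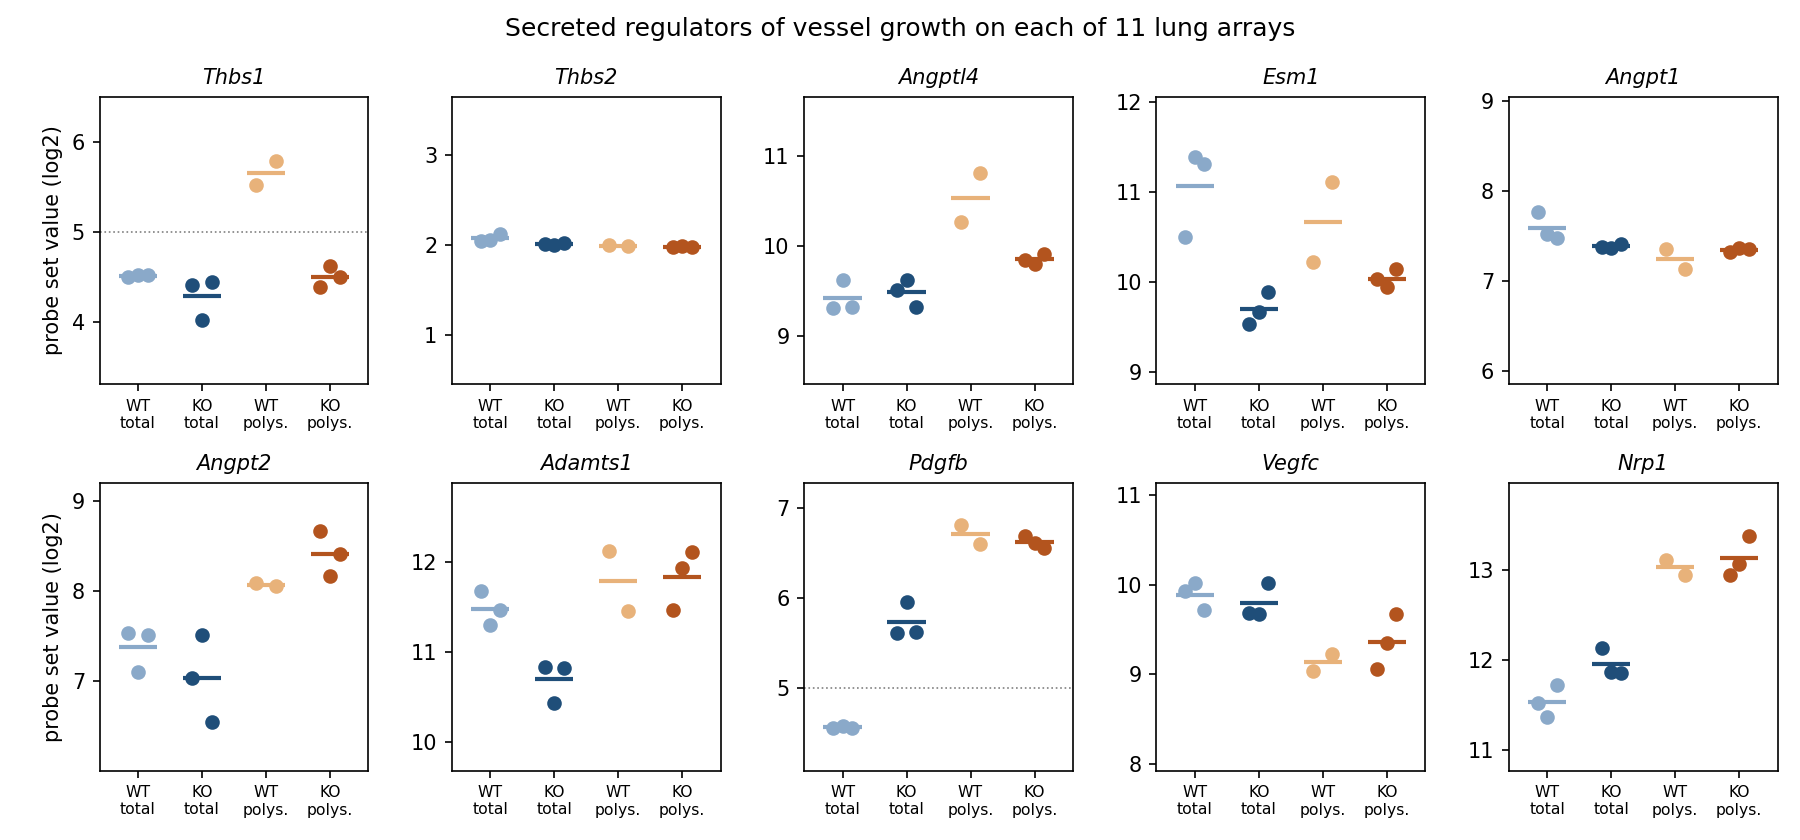
Deposited log2 value of each gene (vertical axis) on every array in 4 groups, with points for arrays and a bar for the group mean. All panels span the same range of log2 units, and the dotted line in the Thbs1 and Pdgfb panels marks 5, the value a probe set had to reach on 2 arrays to be tested. Esm1 and Adamts1 are lower on all knockout total arrays than on any wild-type total array, Pdgfb is higher there, and Thbs1 is high only on the 2 wild-type polysomal arrays.

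Esm1 makes endocan, a proteoglycan secreted by endothelial cells and enriched in the leading tip cells of sprouts in the mouse retina. In wild-type total RNA it lay at 10.50, 11.40 and 11.32 log2, a mean of 11.07 ± 0.49 (SD, n = 3). In knockout total RNA it lay at 9.53, 9.67 and 9.89, a mean of 9.70 ± 0.18 (SD, n = 3). Every knockout total array was below every wild-type total array. The difference was -1.37 log2 units (SE 0.27, limma adjusted p = 0.00674), a 2.59-fold lower level. The call held without any single array and under the other settings tried, with adjusted p-values up to 0.0302. Within set letter A, a label of the arrays that the sources do not explain, the difference was -1.42, and within letter B it was -1.54. These within-letter values rest on too few arrays for a test.

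On polysomes Esm1 was at 10.23 and 11.11 in wild type and at 10.03, 9.94 and 10.15 in knockout. The knockout arrays again lay below both wild-type arrays, but the 2 wild-type arrays were themselves well apart and the difference of -0.63 (SE 0.30, 95% interval -1.30 to 0.034, limma adjusted p = 0.186) did not pass. The interaction, which is the polysomal genotype difference minus the total one, was 0.74 (SE 0.40, adjusted p = 0.206). The size of the Esm1 fall was thus not shown to differ between the RNA kinds.

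Adamts1 is a secreted metalloprotease that cuts proteoglycans of the matrix and restrains endothelial growth. It lay at 11.68, 11.29 and 11.46 log2 in wild-type total RNA and at 10.83, 10.43 and 10.81 in knockout total RNA, with no overlap. The difference was -0.79 (SE 0.22, limma adjusted p = 0.0291), or 1.72-fold lower. The call was lost without wild-type total replicate 1 (-0.69, adjusted p = 0.103) and without knockout total replicate 1 (-0.85, 0.0526), replicate 2 (-0.66, 0.112) or replicate 3 (-0.85, 0.0524). Within letter A the difference was -0.66 and within letter B -0.83. In polysomal RNA Adamts1 was at 12.12 and 11.45 in wild type and at 11.46, 11.93 and 12.11 in knockout. These groups overlapped fully, with a difference of 0.046 (SE 0.24, 95% interval -0.50 to 0.59). The interaction of 0.83 (SE 0.33, limma adjusted p = 0.0968) did not pass, and it passed without wild-type polysomal replicate 1 (1.17, adjusted p = 0.0449).

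Since Esm1 and Adamts1 both fell in total RNA, the 250 bases before their annotated starts are shown, from RefSeq on build GRCm38.p6. The table used held such a window for 5 of the 10 genes. The Esm1 window is chr13:113209409-113209658 on the plus strand, and the Adamts1 window is chr16:85803114-85803363 on the minus strand. Both are written 5′ to 3′ along the gene, with matches to any of 4 searched motifs in capitals.
Esm1: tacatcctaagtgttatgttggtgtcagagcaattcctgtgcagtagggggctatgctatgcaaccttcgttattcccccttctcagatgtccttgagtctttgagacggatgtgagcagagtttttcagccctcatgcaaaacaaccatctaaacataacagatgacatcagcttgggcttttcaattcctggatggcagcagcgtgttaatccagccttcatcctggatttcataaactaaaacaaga
Adamts1: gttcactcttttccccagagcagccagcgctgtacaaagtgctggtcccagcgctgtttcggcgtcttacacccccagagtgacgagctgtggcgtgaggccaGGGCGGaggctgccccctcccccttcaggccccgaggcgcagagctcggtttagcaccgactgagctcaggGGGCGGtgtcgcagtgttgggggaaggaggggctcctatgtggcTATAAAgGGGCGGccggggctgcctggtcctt
The motifs were searched on both strands. They were the ACGTG form of the hypoxia response core, the AP-1 site TGANTCA, the TATA box TATAAA and the GC box GGGCGG. No 2 matches shared a base. The GCGTG form of the hypoxia core was not searched, and both printed windows hold it. The Adamts1 window held a TATA box starting 32 bases before the start and GC boxes at 147, 76 and 25 bases before it. The Esm1 window held no match to any of the 4. Of 32851 promoter windows of this length in the table, 12.4% held the TATA box, 32.7% the GC box, 16.6% ACGTG and 6.7% the AP-1 site. The Esm1 window was 44.0% G and C and the Adamts1 window 65.6%.

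Pdgfb makes the B chain of PDGF, which endothelial cells release to recruit pericytes. In total RNA it lay at 4.56, 4.58 and 4.55 log2 in wild type and at 5.62, 5.96 and 5.62 in knockout. The groups did not overlap, and the wild-type arrays lay close to each other. The rise was 1.17 (SE 0.11, limma adjusted p = 0.000331), or 2.25-fold, with 1.05 within letter A and 1.23 within letter B. Every wild-type total value was below 5, though above the floor, which is a median of dim probe sets and so does not show detection. The total rise, the interaction and the wild-type polysomal minus total difference all use this low group, so they are not separate results. In polysomal RNA Pdgfb was at 6.81 and 6.60 in wild type and at 6.69, 6.61 and 6.56 in knockout, which overlapped. That difference was -0.087 (SE 0.12, 95% interval -0.36 to 0.19, adjusted p = 0.685). The interaction was -1.25 (SE 0.16, limma adjusted p = 0.003), where 14.2% of all tested genes were called lower and 8.06% higher. The total and interaction calls for Pdgfb held without any single array and under the other settings tried.

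Thbs1 makes thrombospondin, a matrix protein that inhibits endothelial growth through its receptors Cd36 and Cd47. It lay at 5.52 and 5.79 log2 in wild-type polysomal RNA and at 4.38, 4.62 and 4.49 in knockout polysomal RNA. In total RNA it was at 4.49, 4.51 and 4.52 in wild type and at 4.40, 4.02 and 4.44 in knockout. The wild-type polysomal arrays thus stood above the other 9, whose values ran together. The polysomal difference was -1.16 (SE 0.14, limma adjusted p = 0.00172), or 2.23-fold lower, and it was -0.90 within letter B and -1.30 within letter C. The total difference of -0.22 (SE 0.13, 95% interval -0.51 to 0.066, adjusted p = 0.245) did not pass although the arrays did not overlap. The interaction was -0.94 (SE 0.19, limma adjusted p = 0.0107). Thbs1 reached the test level of 5 on the wild-type polysomal arrays alone, so it could be tested only because that group was high. Its p-values are thus conditional on that high group and add no support to the values themselves. With every probe set fitted and no such level required, the adjusted p was 0.00318 for the polysomal difference and 0.0196 for the interaction, and with a level of 6 on 3 arrays it was not tested.

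Its relative Thbs2 ran from 1.97 to 2.13 log2 on the 11 arrays, below the median floor of every array, so nothing can be said of its response. Its largest group mean, 2.07 ± 0.045 (SD, n = 3), was that of wild-type total RNA, the group in which the floor was also highest (2.43 to 2.49).

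Angptl4 is a secreted inhibitor of lipoprotein lipase that also acts on vessel permeability and growth. It was at 10.26 and 10.81 log2 in wild-type polysomal RNA and at 9.85, 9.80 and 9.91 in knockout polysomal RNA. Both wild-type arrays were above all knockout arrays. The difference was -0.68 (SE 0.17, limma adjusted p = 0.0263), or 1.61-fold lower, with -0.47 within letter B and -0.90 within letter C. It no longer passed without wild-type polysomal replicate 2 (-0.41, adjusted p = 0.176) and without knockout polysomal replicate 1 (-0.68, 0.062) or replicate 2 (-0.66, 0.0691). In total RNA Angptl4 was at 9.32, 9.63 and 9.32 in wild type and at 9.51, 9.63 and 9.32 in knockout, which overlapped (0.065, SE 0.15, 95% interval -0.27 to 0.40). The interaction of -0.75 (SE 0.23, limma adjusted p = 0.0425) was lost on leaving out any of 8 arrays, which were all but wild-type total replicate 2, knockout total replicate 3 and wild-type polysomal replicate 1. Its values then ran from -0.78 to -0.48 and its adjusted p-values from 0.0633 to 0.148. Summed adipocyte markers, of which 6 of 7 were measured and Lep and Retn stayed below 5, ran from 14.25 to 14.73 log2 in wild-type polysomal RNA and from 14.11 to 14.82 in knockout polysomal RNA, so the genotypes overlapped. These sums, like those of other markers below, add unlogged values, so the brightest genes weigh most. Of the 4 tested adipocyte markers none passed in polysomal RNA, with a median of -0.29, and 1 rose in total RNA. Their part in the Angptl4 values was not tested.

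**Figure D2:**
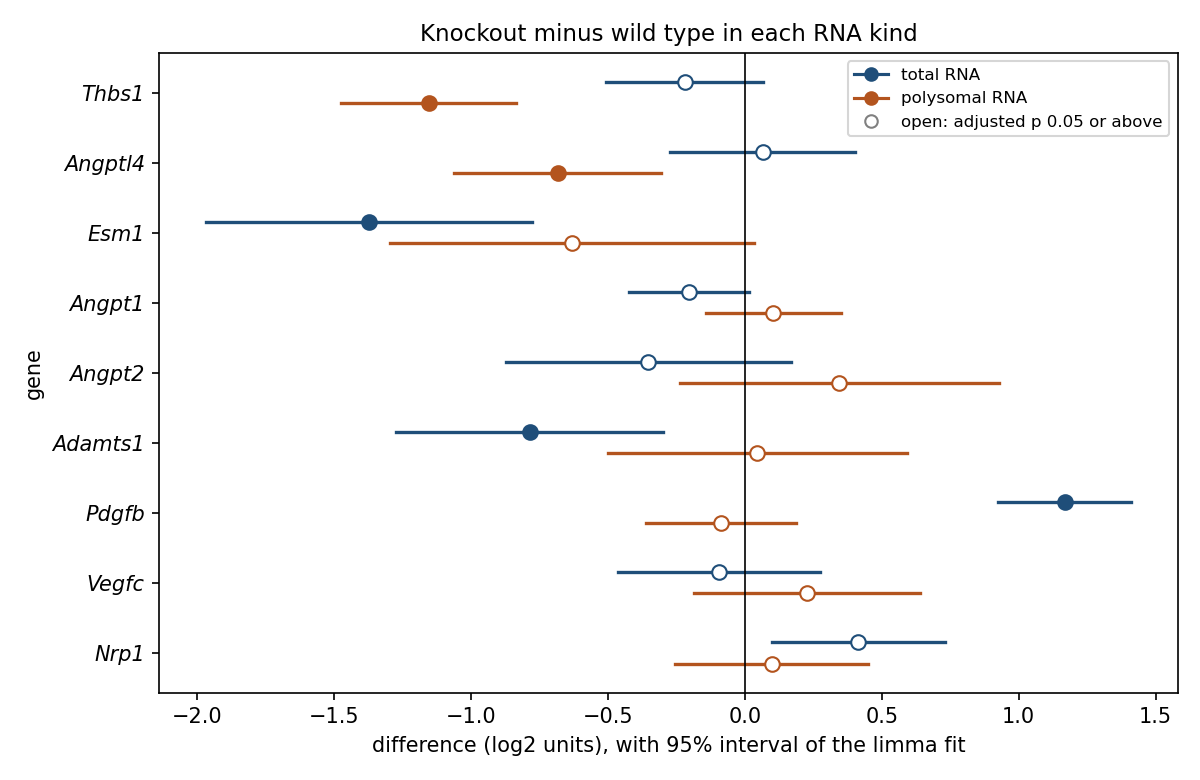
Difference knockout minus wild type in log2 units (horizontal axis) for the 9 tested genes, in total RNA and in polysomal RNA, with the 95% interval of the limma fit. Filled points passed at an adjusted p under 0.05. Esm1, Adamts1 and Pdgfb are filled in total RNA and Thbs1 and Angptl4 in polysomal RNA, and no gene is filled in both.

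The angiopoietins did not pass in either RNA kind. Angpt1, which steadies vessels as the activating ligand of Tek, was at 7.77, 7.52 and 7.48 log2 in wild-type total RNA and at 7.38, 7.37 and 7.42 in knockout total RNA. These did not overlap, and the difference was -0.21 (SE 0.098, 95% interval -0.43 to 0.015, limma adjusted p = 0.16). In polysomal RNA it was 0.10 (SE 0.11). Angpt2, which endothelial cells store and release and which can oppose Angpt1 at Tek, was at 7.54, 7.09 and 7.51 in wild-type total RNA and at 7.03, 7.51 and 6.54 in knockout total RNA. The knockout arrays spread widely and overlapped the wild type (-0.35, SE 0.23, 95% interval -0.87 to 0.17). In polysomal RNA Angpt2 was at 8.08 and 8.05 in wild type and at 8.67, 8.16 and 8.41 in knockout, without overlap, yet the difference of 0.34 (SE 0.26, 95% interval -0.24 to 0.93, limma adjusted p = 0.42) did not pass. Groups did not overlap for 6 of the 9 tested genes in total RNA and for 4 in polysomal RNA, beside 42.0% and 48.9% of all tested genes.

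Vegfc, the growth factor of lymphatic vessels, did not pass either. It was at 9.92, 10.02 and 9.72 log2 in wild-type total RNA and at 9.68, 9.68 and 10.02 in knockout total RNA, a difference of -0.093 (SE 0.17, 95% interval -0.46 to 0.28). In polysomal RNA it was at 9.04 and 9.22 in wild type and at 9.06, 9.35 and 9.68 in knockout (0.23, SE 0.18, 95% interval -0.19 to 0.64). The groups overlapped in both RNA kinds.

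Nrp1, a co-receptor for VEGF and for semaphorins, was at 11.52, 11.37 and 11.72 log2 in wild-type total RNA and at 12.13, 11.86 and 11.86 in knockout total RNA. All knockout arrays were higher than all wild-type arrays. The difference of 0.41 (SE 0.14, limma adjusted p = 0.0609) did not pass, and it passed without wild-type total replicate 3 (0.51, adjusted p = 0.0344) or knockout polysomal replicate 3 (0.41, 0.0446). It was 0.69 within letter A and 0.14 within letter B. In polysomal RNA the difference was 0.098 (SE 0.16, 95% interval -0.25 to 0.45).

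Within each genotype, polysomal RNA was compared with total RNA to see which messages were relatively abundant on several ribosomes. In wild type 5 of the 9 genes were higher on polysomes, 2 were lower and 2 did not pass (groups did not overlap for 7, beside 82.5% of all tested genes), beside 72.4% of all tested genes that passed, 44.5% higher and 27.9% lower. In knockout 4 were higher, 1 was lower and 4 did not pass (no overlap for 6, beside 76.1%), beside 65.2% of all tested genes, 39.5% higher and 25.7% lower. Counts of this size stood near those shares.

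Pdgfb was 2.15 higher on polysomes in wild type (SE 0.12, limma adjusted p = 2.77e-07) and 0.89 higher in knockout (SE 0.11, adjusted p = 6e-05). Its total RNA level in knockout therefore lay between its wild-type total and polysomal levels. Nrp1 was 1.49 higher in wild type (SE 0.16) and 1.18 higher in knockout (SE 0.14), one of the steadier pairs. Thbs1 was 1.15 higher in wild type (SE 0.14) and 0.21 in knockout (SE 0.13, limma adjusted p = 0.18). Thbs1 is counted above among the genes higher in wild type, but it was tested only because its wild-type polysomal arrays were high. The filter thus favoured that rise, and its call adds no support. Angptl4 was 1.12 higher in wild type (SE 0.17) and 0.37 in knockout (SE 0.15, limma adjusted p = 0.0567). That knockout value passed without wild-type total replicate 2 (0.37, adjusted p = 0.0494) and without wild-type polysomal replicate 1 or 2 (adjusted p = 0.0222 for each).

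Vegfc was lower on polysomes, by -0.75 in wild type (SE 0.18, limma adjusted p = 0.00417) and by -0.43 in knockout (SE 0.17, adjusted p = 0.0427). The knockout call was lost without any of 8 arrays, all but wild-type total replicates 2 and 3 and knockout polysomal replicate 3, with values then from -0.49 to -0.28. Angpt1 was lower in wild type (-0.35, SE 0.11, limma adjusted p = 0.0156), which was lost without wild-type total replicate 1 (-0.26, adjusted p = 0.0502) or wild-type polysomal replicate 2 (-0.24, 0.135) and with a fit of the compared groups alone (-0.35, 0.083), and it was at -0.040 in knockout (SE 0.098). Angpt2 was higher on polysomes in knockout (1.38, SE 0.23, adjusted p = 0.000496) and in wild type (0.69, SE 0.26, adjusted p = 0.0363). The wild-type call for Angpt2 was lost without wild-type total replicate 2, knockout total replicate 1 or either wild-type polysomal array, with values from 0.54 to 0.70 and adjusted p-values from 0.0507 to 0.122. It was also lost with no filter (0.0507) and under quantile normalization (0.56, 0.0793).

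Adamts1 was 1.14 higher on polysomes in knockout (SE 0.22, limma adjusted p = 0.00113) and at 0.31 in wild type (SE 0.24, adjusted p = 0.273). Esm1 did not pass in wild type (-0.40, SE 0.30) or in knockout (0.34, SE 0.27). In wild type Esm1 was lower on polysomes without wild-type total replicate 1 (-0.69, adjusted p = 0.0355) or wild-type polysomal replicate 2 (-0.84, 0.0412), and it was at 0.039 without wild-type polysomal replicate 1.

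**Figure D3:**
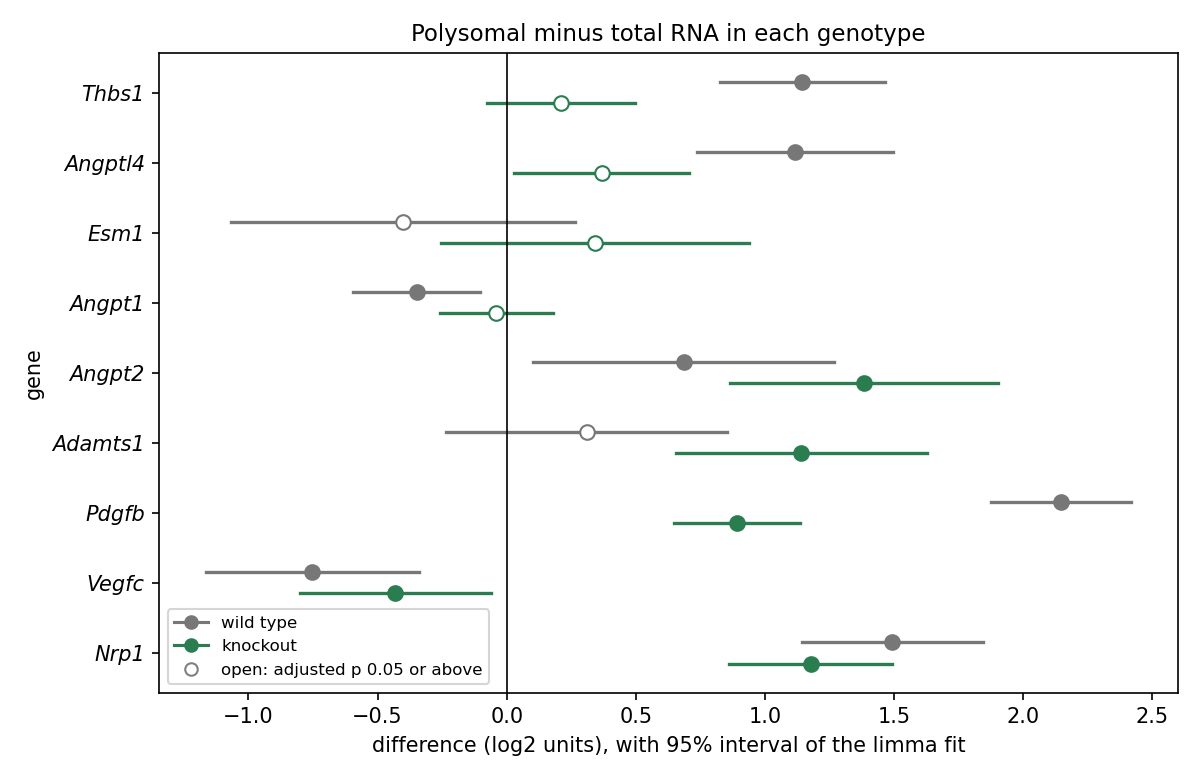
Difference polysomal minus total RNA in log2 units (horizontal axis) for the 9 tested genes in wild type and in knockout, with the 95% interval of the limma fit. Filled points passed at an adjusted p under 0.05. Thbs1, Angptl4 and Pdgfb, which passed the interaction, sit further left in knockout than in wild type. Of the genes that did not pass it, Adamts1, Esm1, Angpt2, Vegfc and Angpt1 sit further right and Nrp1 further left. Thbs1 could be tested only because its wild-type polysomal arrays were high.

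The interaction passed for 3 of the 9 genes, Pdgfb, Thbs1 and Angptl4, all lower, and for 22.3% of all tested genes. It did not pass for Esm1, Adamts1, Angpt2 (0.70, SE 0.35, limma adjusted p = 0.18), Vegfc (0.32, SE 0.25), Angpt1 (0.31, SE 0.15) and Nrp1 (-0.32, SE 0.21). The median interaction over all tested genes was -0.13. Regressed over all tested genes, the knockout difference between polysomal and total RNA followed the wild-type one with a slope of 0.684. Genes high on polysomes in wild type thus tended to have an interaction below 0. Noise in the wild-type difference, which the interaction subtracts, lowers such a slope by itself, by an amount not tested. Pdgfb, Thbs1 and Angptl4 were high on polysomes in wild type, and the part of this slope in their interactions was not tested. Thbs1 could be tested only because its wild-type polysomal arrays were high, which also favours an interaction below 0.

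The receptors and co-receptors of vessel growth other than Nrp1 gave 4 rises among 9 tested genes in total RNA, no fall and 5 that did not pass, with a median of 0.46 beside 0.085 for all tested genes. They were Tie1 (1.44, SE 0.14), the TGF-beta family receptors Acvrl1 (0.90, SE 0.10) and Eng (0.88, SE 0.14), and the main VEGF receptor Kdr (0.78, SE 0.15). Each of these calls held without any single array. Tie1, Eng and Kdr are also on the list of endothelial markers given below, so these lists are not separate. In polysomal RNA none of the 9 passed by limma, the smallest p being that of Tek (0.29, SE 0.11, unadjusted p = 0.0287, adjusted p = 0.115), the 1 with an unadjusted p under 0.05. Tie1, Acvrl1 and Eng were lower in the interaction. Of the 16 listed receptors 15 had a probe set, and Flt4, Nrp2, Itgav, Itgb3 and Plxna1 stayed below 5 on every array, so the Vegfc receptor Flt4 could not be read.

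Beside the members, 13 other secreted inhibitors of vessel growth were tested. In total RNA 6 rose, 1 fell and 6 did not pass, with a median of 0.48. Among those that rose were Thbs3, a further thrombospondin (0.88, SE 0.10), the protease inhibitor Timp2 (0.67, SE 0.095), the matrix protein Sparc (0.66, SE 0.10) and Sema3f (0.96, SE 0.22), a semaphorin that binds neuropilins. The gene that fell was Sema3a (-0.40, SE 0.12), named after its value was seen, and its call was lost without any of 7 arrays (adjusted p up to 0.132). The number that rose was between 3 and 7 when single arrays were left out, and Sema3f was lost without wild-type total replicate 1 or knockout total replicate 2 (adjusted p up to 0.0515). In polysomal RNA none rose and 2 fell, with a median of 0.081. These were Serpinf1, which makes the vessel inhibitor PEDF (-0.68, SE 0.10), and Timp3 (-0.67, SE 0.19), a call lost without any of 9 arrays, all but wild-type total replicates 2 and 3 (adjusted p up to 0.216).

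Of 12 other tested secreted promoters of vessel growth 2 rose in total RNA, 1 fell and 9 did not pass, with a median of -0.013. Adm, the vasodilator adrenomedullin, was up 1.34 (SE 0.31) and Egfl7, an endothelial matrix protein, 1.05 (SE 0.092). Egfl7 is also on the list of endothelial markers. Ccn2, a matricellular protein, fell (-0.58, SE 0.18), a call lost without any of 7 arrays, all but wild-type total replicate 3, knockout total replicate 1 and knockout polysomal replicates 1 and 3. The call for Adm was lost without knockout total replicate 2 (1.01, adjusted p = 0.0573). In polysomal RNA the endothelial vasoconstrictor peptide Edn1 fell by 1.80 (SE 0.31, limma adjusted p = 0.00606) and Ccn2 by 0.91 (SE 0.20), while Egfl7 rose by 0.42 (SE 0.10). The Ccn2 call was lost without either wild-type polysomal array (adjusted p up to 0.0724) and that for Egfl7 without either of them or knockout polysomal replicate 2 or 3 (up to 0.103).

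Of 5 tested genes of endothelial tip cells, the cell state that Esm1 marks, 1 rose in total RNA, the fenestral protein Plvap (1.29, SE 0.17), none fell and 4 did not pass. The median of the 5 was 0.34, while Esm1 itself was at -1.37. None of the 5 passed in polysomal RNA by limma, where the smallest p was that of Dll4, a Notch ligand (-0.56, SE 0.25, unadjusted p = 0.0468, adjusted p = 0.157), the 1 under 0.05 unadjusted. Endothelial markers, of which 9 of 14 rose in total RNA with a median of 0.77, had summed levels of 14.22 to 14.32 log2 in wild-type total RNA and 14.87 to 14.99 in knockout total RNA. In polysomal RNA these sums were 16.39 to 16.45 and 16.36 to 16.51. There 1 endothelial marker rose, Egfl7, and 1 fell, Sox17 (-0.99, SE 0.091, limma adjusted p = 0.000576), with a median of -0.13. The Sox17 call held without any single array. In total RNA the Pdgfb rise went in the direction of these markers and the Esm1 and Adamts1 falls went against it. The markers' part in these results was not tested. The interaction was lower for 9 of the 14, with a median of -0.79. In wild type all 14 were higher on polysomes, with a median of 1.85. Other marker lists also moved. In total RNA 3 of 8 heart muscle markers rose with a median of 0.77, as did 3 of 7 markers of alveolar type 2 and club cells with a median of 0.39. Of 10 macrophage markers 3 rose and 3 fell in total RNA. The rise of smallest p was that of C1qa (4.01, SE 0.22) and the fall of smallest p that of Siglecf (-0.58, SE 0.12). The C1qa interaction was -4.40 (SE 0.33). In polysomal RNA 4 macrophage markers fell and none rose, with a median of -0.34. The macrophage sums were 16.41 to 16.45 log2 in wild-type and 16.04 to 16.16 in knockout polysomal RNA, lower as Thbs1 and Angptl4 were, and their part in those values was not tested. The 4 macrophage falls became 1 to 4 without single arrays.

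Smooth muscle and pericyte markers, the cells that PDGF recruits, gave 4 rises among 8 tested in total RNA with a median of 0.58, and fibroblast markers 2 among 9 with a median of 0.45. In polysomal RNA none of the 8 smooth muscle and pericyte markers rose and 2 fell, Des (-0.49, SE 0.12) and Notch3 (-0.61, SE 0.15), both of which had risen in total RNA, and the interaction was lower for 4 of the 8. The 2 falls became 0 to 2 without single arrays. Of the fibroblast markers 1 rose and 1 fell in polysomal RNA. The smooth muscle sums were 11.95 to 12.19 log2 in wild-type and 12.64 to 12.70 in knockout total RNA, with Rgs5, Kcnj8 and Abcc9 below 5 on every array. The fibroblast sums were 14.19 to 14.43 and 15.04 to 15.07. Platelets carry thrombospondin and PDGF. Of the 10 measured platelet markers, 7, among them Itga2b, Gp9 and Gp1bb, were below 5 on every array. Of the 3 tested, 2 fell in total RNA, the receptor Clec1b (-1.28, SE 0.20) and the chemokine Ppbp (-0.87, SE 0.28), and Pf4 was at -0.055 (SE 0.13). The Ppbp call was lost without any of 9 arrays, all but wild-type total replicate 2 and knockout total replicate 2 (adjusted p up to 0.150). In polysomal RNA none of the 3 passed by limma, with 1 at an unadjusted p under 0.05. The platelet sums were 11.09 to 11.14 log2 in wild-type and 10.91 to 11.01 in knockout total RNA, and 10.43 to 10.95 and 10.77 to 11.04 in polysomal RNA. Their part in the Thbs1 and Pdgfb values was not tested.

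Angptl4 and Adamts1 also respond to outside cues, and 3 lists of such genes were read. Of 13 tested PPAR targets, the fatty acid response genes to which Angptl4 belongs, none passed in polysomal RNA by limma, with 4 at an unadjusted p under 0.05 and a median of -0.14. The smallest p was that of Acaa2, an enzyme of fatty acid oxidation (-0.66, SE 0.20, adjusted p = 0.0524). In total RNA 2 of the 13 rose and none fell, the lipid droplet protein Plin2 (0.46, SE 0.098) and Acaa2 (0.62, SE 0.18), and the Acaa2 call was lost without wild-type total replicate 1 or any knockout total array (adjusted p up to 0.101). Of 16 tested hypoxia targets 5 fell in polysomal RNA, none rose and 11 did not pass, with a median of -0.44 beside -0.0080 for all tested genes. They included the collagen hydroxylases P4ha1 (-1.07, SE 0.20) and P4ha2 (-0.91, SE 0.19), Ndrg1 (-0.69, SE 0.14) and Ankrd37 (-1.23, SE 0.30). Leaving out single arrays gave between 0 and 6 falls, and there were 0 without wild-type polysomal replicate 2. In total RNA 2 hypoxia targets rose, Aldoa (1.09, SE 0.20) and Adm. Of 15 tested immediate early genes 2 rose in total RNA, Ier2 (1.30, SE 0.22) and Zfp36 (0.60, SE 0.11), and none passed in polysomal RNA by limma, with 5 at an unadjusted p under 0.05. The smallest p there was that of the transcription factor Egr1 (1.61, SE 0.57, adjusted p = 0.0873).

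**Figure D4:**
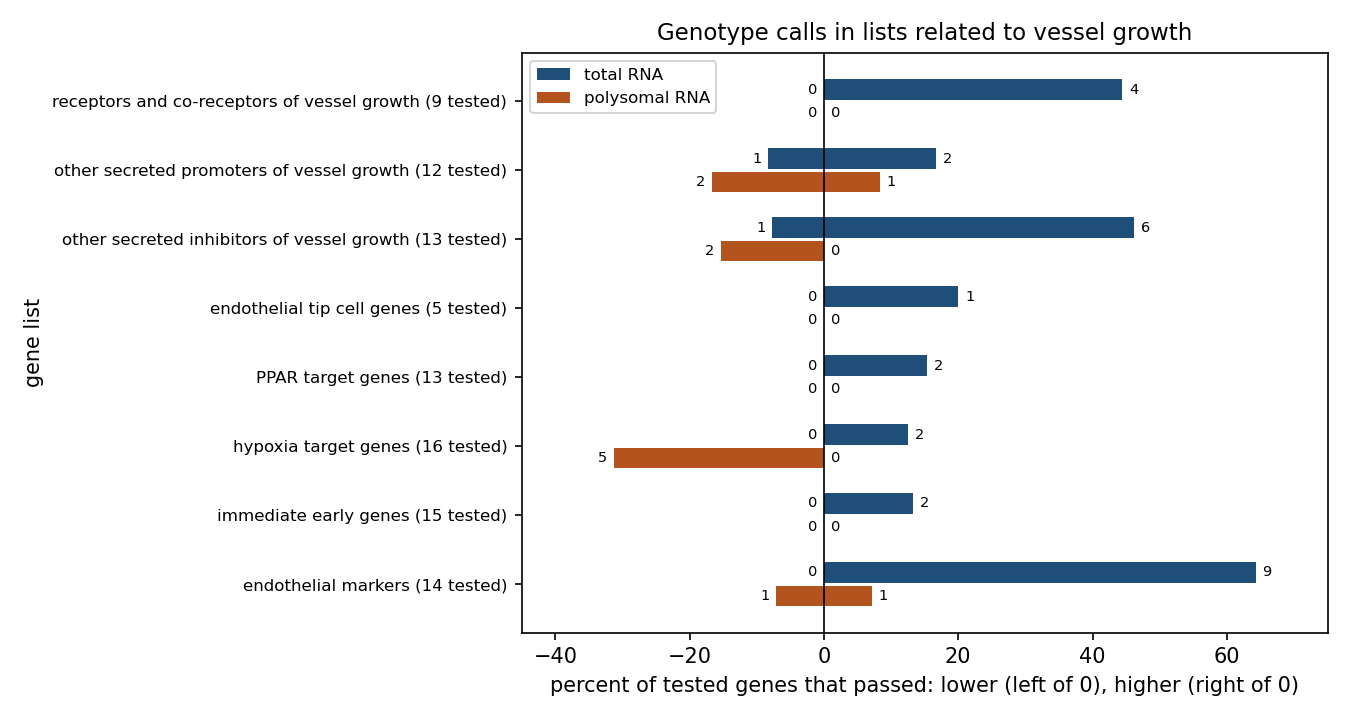
Percent of the tested genes of each list that passed in knockout minus wild type (horizontal axis, lower to the left of 0 and higher to the right), in total and in polysomal RNA, with the number of genes at each bar. In total RNA 9 endothelial markers, 4 receptors and 6 other inhibitors lie to the right, with 1 inhibitor to the left, and 5 hypoxia targets lie to the left in polysomal RNA. The lists share genes, and Tie1, Kdr and Eng count among both the receptors and the endothelial markers.

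For each tested member the 3 genes with the most alike profile over the 11 arrays were found, as the smallest root mean square difference after centring each gene on its mean. For Thbs1 they were Mfsd2a (0.109 log2 units), Prodh and Selenoo, against a spread of Thbs1 itself of 0.521 (SD over 11 arrays). For Pdgfb they were Slc25a1 (0.105), Ccdc124 and Rps9, against a spread of 0.915, and for Nrp1 they were Col6a1 (0.115), Chkb and Tm9sf4, against 0.737. Angptl4 was nearest to Bhlhe40 (0.123), a gene of the hypoxia list, followed by Med20 and Cgrrf1, against 0.455. Vegfc was nearest to Ppm1k (0.104), Arhgap6 and Csgalnact1, against 0.359, and Angpt1, whose own spread was 0.157, to Sec62 (0.0591), Atp2c1 and Cdyl. Angpt2 was nearest to Nudt16 (0.235), Irgm1 and Fam98b, against a spread of 0.646, and Adamts1 to Cluap1 (0.214), Cd1d1 and Arl6, against 0.548. Esm1 was nearest to Npr3 (0.326), Chordc1 and Grp, against 0.656. No member was among the 3 nearest genes of another member. All profiles share the same 11 arrays and 4 groups.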

How the data were processed

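Arrays were 1-colour Affymetrix arrays of 100 ng RNA labelled with biotin in a two-cycle kit, per the labels' protocols. The authors deposited log2 values, as their range shows (0.733 to 16.7, array medians 4.96 to 5.04), made with GCRMA, per the submitters' processing notes. The GCRMA version, probe grouping and genome build are not given in the sources used here. By RefSeq accession, 15228 of 26180 probe sets matched 1 gene in RefSeq (GRCm38.p6) and 10952 none. Each gene took the probe set of highest mean.

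Probe sets at 5 log2 or more on at least 2 of 11 arrays (13802) were fitted with limma 3.58.1 in R 4.3.3, with 1 mean per group and 7 residual degrees of freedom. Tests were two-sided, adjusted by Benjamini-Hochberg over all tested probe sets. Intervals are 95% and unadjusted. The script was tested on simulated data. Alternatives are given in the closing section. The members, lists, naming rule (all members, and per list and comparison up to 4 passing genes by smallest p, or the gene of smallest p, and the 3 nearest genes of each tested member) and tests were chosen with earlier results of these data known. The planned protein identities were not computed. Array number limits the precision. Figures used matplotlib 3.10.9.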

Additional observations from a re-analysis of the deposited data

Results flagged for a closer look

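The change in knockout differed between polysomal and total RNA for 3 of the genes, by the interaction term of the limma fit, which passed for 22.3% of all tested genes, 14.2% lower, and was lower for 9 of 14 endothelial markers. Pdgfb was at -1.25 log2 units (SE 0.16, limma adjusted p = 0.003), with a rise of 1.17 in total RNA and -0.087 in polysomal RNA. Thbs1 was at -0.94 (SE 0.19, adjusted p = 0.0107), with -0.22 in total RNA and -1.16 in polysomal RNA, and it could be tested only because its wild-type polysomal arrays were high. Angptl4 was at -0.75 (SE 0.23, adjusted p = 0.0425), with 0.065 in total RNA and a fall of -0.68 in polysomal RNA. The Angptl4 interaction was lost without any of 8 of the 11 arrays, with no filter (0.0774), under quantile normalization (0.0505) and with the replicate block (0.0657). No group had the 4 arrays needed to look for single outlying arrays.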

How the results depend on the processing

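Over 5 comparisons and the 9 tested genes, the planned settings other than leaving out arrays gave 418 values, of which 397 kept their direction and their side of the threshold, 15 lost and 3 gained a call, and 3 changed sign. The sign changes were Angptl4 in total RNA (-0.038) and polysomal minus total Adamts1 in wild type (-0.052), both under quantile normalization, and polysomal minus total Angpt1 in knockout (0.016) with equal array medians. None of these had passed, and the cause was not tested. The polysomal genotype count of 2 fell to 1 with a level of 6 on 3 arrays, where Thbs1 was not tested, and to 1 with the set letter as a replicate block inside each RNA kind or with a fit of the compared groups alone, where Angptl4 was lost (adjusted p = 0.0585 and 0.0796). It was 1 to 2 without single arrays. The block also ended the total RNA call for Adamts1 (-0.75, adjusted p = 0.0545, and -0.83, adjusted p = 0.0545, with letters over both RNA kinds) and the interaction of Angptl4 (-0.78, 0.0657), which was also lost with no filter (0.0774) and under quantile normalization (0.0505). With letters over both RNA kinds it ended the wild-type polysomal minus total calls for Angpt1 (-0.29, 0.0969) and Angpt2 (0.73, 0.0975). The same difference for Vegfc in knockout was lost with no filter (0.0722), equal array medians (0.0641) and the compared groups alone (0.0741), while Angptl4 in knockout gained a call with equal medians (0.0281) and the compared groups alone (0.0156), and Esm1 with the latter (0.0357). Same-letter arrays of opposite genotype had deviations correlated at -0.050 to 0.042 in total and 0.10 to 0.12 in polysomal RNA. For arrays of different letters the correlations were -0.046 to 0.051 and -0.12 to 0.0034. In polysomal RNA the same-letter pairs thus lay above all others. The deviations of the 2 wild-type polysomal arrays mirror each other, so this cannot decide whether the letters pair the arrays. The main fit left the letters out. Without single arrays the values that changed sign ran from -0.0064 to 0.17 for Angptl4 in total RNA, and in polysomal RNA from -0.29 to 0.38 for Adamts1, -0.0054 to 0.21 for Angpt1, -0.19 to 0.018 for Pdgfb and -0.025 to 0.19 for Nrp1. Polysomal minus total RNA in wild type ran from -0.84 to 0.039 for Esm1 and -0.026 to 0.65 for Adamts1. Leaving out arrays of the gene lists was chosen after seeing the data. Where 1 wild-type polysomal array was left out, the other was assumed to vary like the other groups. A block within RNA kind gives no value for polysomal minus total RNA. Thbs2 lay below the median floor, and Thbs1 and wild-type total Pdgfb lay above it but mostly or wholly below the level of 5.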
